A study of Homo sapiens with 6 samples.

Results

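The genes described here are androgen-regulated genes other than the kallikreins. They are 32 listed genes, found in the expression tables by matching Ensembl identifiers to gene symbols. All 32 were present among the 20308 genes of the tables. The comparison asked which of them were higher and which were lower once METTL1, the catalytic subunit of an RNA N7-methylguanosine methyltransferase, had been silenced in prostate cancer cells.

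RNA-seq was performed on LNCaP-AI cells, an androgen-independent derivative of the LNCaP prostate cancer line used as a model of castration-resistant prostate cancer (CRPC). Of the libraries, 3 carried a stable lentiviral METTL1 knockdown (shMETTL1), 3 carried the control construct (shscramble), and all 6 were labelled with Androgen Deprivation Therapy as treatment. The labels name no library given androgen, so no androgen-stimulated state was compared. All libraries came from 1 cell line, and the labels do not state whether the libraries of a group were separate cultures, so p-values measure the spread between these libraries. The study lists 1 target sequence for shMETTL1, so effects of METTL1 loss and other effects of that sequence cannot be told apart.

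Androgens such as testosterone and dihydrotestosterone control genes in luminal prostate cells through androgen response elements in the DNA. These elements are paired hexamer motifs that lie mostly in enhancers far from the genes they control, and many are opened by the pioneer factor FOXA1 together with HOXB13. Genes under androgen control include secreted proteases, chaperones of steroid receptors, enzymes of lipid and sugar metabolism and membrane transporters. Many of them stay active in CRPC although androgen is low, and the glucocorticoid receptor can switch on a part of the same set.

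A search of RefSeq promoters (GRCh38.p14, 250 bases before to 50 bases after each annotated start) for the hexamer unit of the androgen response element, AGAACA, and its reverse complement TGTTCT gave 4 matches in the 37 promoters of 21 members (10.8% of promoters), against 5192 of all 35116 promoters (14.8%). These 4 sites are shown because they are the only stretches of member promoters with the hexamer, and they belong to FKBP5, PMEPA1 and TRPM8. Each is given on the strand of its gene with 9 bases on either side, and capitals mark the hexamer.
FKBP5, chr6:35728569-35728592, minus strand, hexamer starting at the first transcribed base: cactaccccAGAACAaactcctac
PMEPA1, chr20:57710792-57710815, minus strand, upstream of a start: tgaagaatgTGTTCTtgtagcact
PMEPA1, chr20:57711436-57711459, minus strand, downstream of another start: gacttctccAGAACAagcctcctg
TRPM8, chr2:233979974-233979997, plus strand, upstream of a start: atgaagagcAGAACAgccagtgtg
The full element, AGAACA and TGTTCT separated by any 3 bases, was in none of the member promoters and in 1 of all promoters. Of the genes called below, TSC22D3, C1orf116, ACSL3 and RAB3B had promoters in the reference and none held the hexamer. A match says only that these letters are present. No promoter was in the reference for TMPRSS2, PLPP1, NDRG1, ELL2, ZBTB10, MED28, ADAMTS1, NNMT, TPD52, SORD and SPOCK1.

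Each library was deposited with an estimated count and an FPKM value (fragments scaled to transcript length and mapped fragments) for every gene. Estimated counts summed to between 3389897 and 3604835 per library. The values moved in steps of 1 size per library, from which between 2650770 (shMETTL1 replicate 1) and 4085352 (shscramble replicate 2) fragments were derived, so that counting error was largest in shMETTL1 replicate 1. Mitochondrial transcripts took 11.2% to 13.1% of the counts. METTL1 itself had estimated counts of 36.4, 48.6 and 65.1 in shscramble replicates 1 to 3 and of 9.52, 28.5 and 20.5 in shMETTL1 replicates 1 to 3, without overlap, and fell to 38.9% of the control (edgeR log2 fold change -1.36, adjusted p = 0.0309, and 0.0972 to 0.172 without shscramble replicate 3, shMETTL1 replicate 1 or shMETTL1 replicate 3). By FPKM METTL1 averaged 17.8 in shscramble and 9.02 in shMETTL1, also without overlap. Limma on FPKM gave a smaller log2 fold change of -0.93, which did not pass (adjusted p = 0.127). The luminal markers KLK3, KRT8, KRT18, FOLH1, HOXB13 and FOXA1 were all expressed, with a summed FPKM of 2090 to 2120 in shscramble and 1650 to 1894 in shMETTL1, and KLK3 was the 1 called gene among these 6. KLK3 was the largest part of that sum, with a mean FPKM of 1189 in shscramble and 806 in shMETTL1. By edgeR 4 of the 6 had positive log2 fold changes and 2 had negative ones. Of markers for other cell types, KRT5 (basal), CHGA, INSM1 and NCAM1 (neuroendocrine), DCN and LUM (stroma), CDH5 (endothelium), PTPRC and CD3E (leukocytes) were at 0 in all 6 libraries. The summed FPKM of these lists in shscramble and shMETTL1 libraries was 0.886 to 4.73 and 0 to 1.6 for the basal list (mainly KRT14), 21.3 to 27.0 and 17.1 to 23.3 for the neuroendocrine list (mainly ENO2) and 7.94 to 13.5 and 4.99 to 11.2 for stroma (mainly COL1A1). It stayed under 1 for the endothelial and leukocyte lists. No gene of these lists was called, and their part in the results was not tested.

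The control library shscramble replicate 2 stood apart from its group. Over the tested genes its log2 CPM (counts scaled to the normalized library total) correlated at 0.960 to 0.966 with the 3 shMETTL1 libraries, and at 0.954 and 0.963 with shscramble replicates 1 and 3. The other 2 control libraries correlated at 0.942 to 0.951 with the shMETTL1 libraries. Results are therefore given with this library and without it. This library was picked from these same data, as the control closest to the shMETTL1 libraries. Leaving it out therefore tends to widen the difference between the groups for all genes. Calls gained in that fit are no independent support for a change.

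In shMETTL1 cells 7 members changed, of which 4 rose and 3 fell. TSC22D3, the glucocorticoid-induced leucine zipper, rose 1.77-fold, the extracellular protease gene ADAMTS1 1.73-fold, the androgen-regulated gene C1orf116 1.70-fold and the lipid phosphatase gene PLPP1 to 150.4% of its control level. TMPRSS2, the transmembrane protease whose promoter drives ETS fusions in prostate cancer, fell to 64.2% of its control level, the secretory GTPase gene RAB3B to 68.1% and the acyl-CoA synthetase gene ACSL3 to 73.2%. FKBP5, one of the most used markers of androgen response, did not pass the test. As the libraries are bulk RNA, fewer cells expressing a gene and less RNA of it per cell cannot be told apart. The members did not move in 1 direction.

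These calls come from the quasi-likelihood test of edgeR on the estimated counts, with p-values adjusted over all 11754 genes with a mean estimated count of at least 5 and a gene called at an adjusted p under 0.05. Of the members, 25 passed this filter. The 4 that rose stand against 2.71% of all tested genes called higher, and the 3 that fell against 3.70% called lower. Without shscramble replicate 2 the members called were 5 higher, with SORD added, against 8.30% of all genes, and 6 lower, with ABCC4, NDRG1 and TPD52 added, against 10.0%. The estimated counts of the groups did not overlap for 5 members that were higher and 7 that were lower in shMETTL1, against 14.1% and 11.5% of all genes. Over the 25 members the median log2 fold change was -0.14, with 10 positive and 15 negative values, and over all tested genes it was -0.0021. By limma on log2(FPKM + 0.5), none of 26 members passed the adjusted threshold, which 0.123% of all genes did, and 5 members, 4 of them higher, had an unadjusted p under 0.05, which 14.2% of all genes did. The 4 higher were those called higher by edgeR, and the lower was ZBTB10, which edgeR did not call. The 3 members called lower by edgeR had unadjusted p-values by limma on FPKM of 0.0712 (TMPRSS2), 0.0682 (ACSL3) and 0.145 (RAB3B). The direction was the same by count and by FPKM for 23 of the 25 members.

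**Figure D1:**
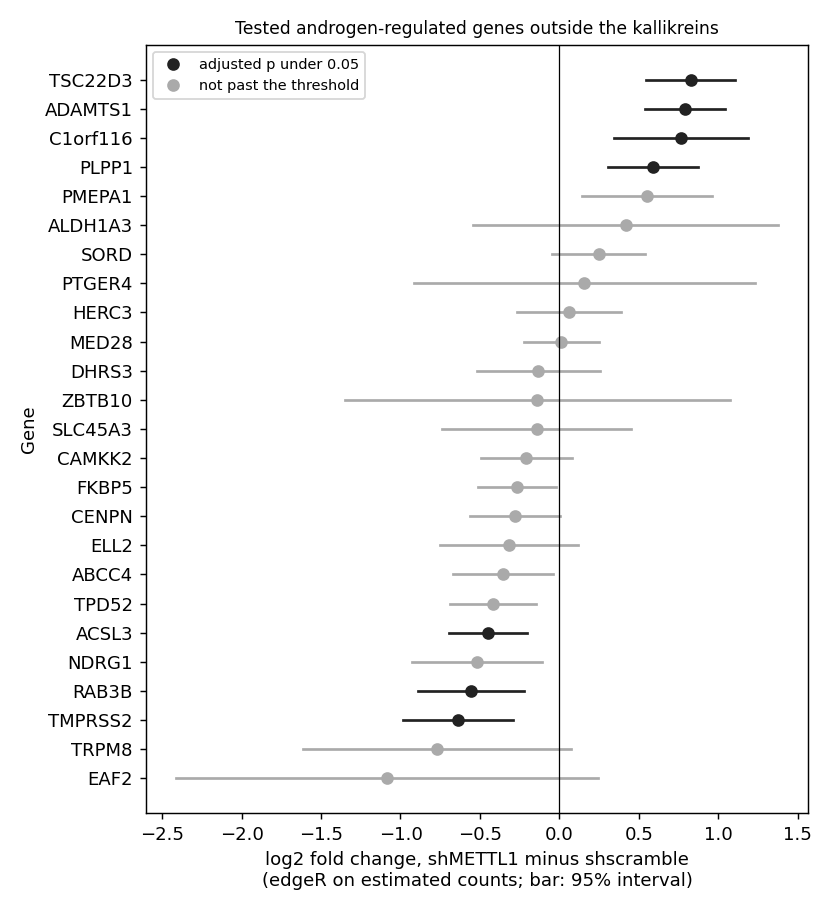
Log2 fold change (shMETTL1 over shscramble, edgeR on estimated counts) of the 25 member genes above the count filter, with 95% intervals, ordered from highest to lowest. Called genes are drawn in black and the others in grey: the 4 called higher lie between 0.59 and 0.82 and the 3 called lower between -0.64 and -0.45, while EAF2, at -1.08, has the widest interval and was not called.

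Among the chaperone and transcription regulators, TSC22D3 was the single member that passed. TSC22D3 (ENSG00000157514; GRCh38 chromosome X, 107713221 to 107777342, minus strand) encodes GILZ, a leucine zipper protein that binds and restrains inflammatory transcription factors and is induced by glucocorticoid as well as androgen. Its estimated counts were 150.5, 188 and 186 in shscramble replicates 1 to 3 and 321, 333 and 305 in shMETTL1 replicates 1 to 3. The lowest shMETTL1 library thus lay well above the highest control library. The FPKM averaged 41.6 ± 3.83 and 73.0 ± 10.8 (SD, n = 3 each), again without overlap. By edgeR the log2 fold change was 0.82 (standard error 0.133, adjusted p = 0.000925). Leaving out each library in turn gave 0.77 to 0.88, called in all 6 fits, and limma on FPKM gave an adjusted p of 0.0931.

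FKBP5, an Hsp90 co-chaperone that acts on steroid receptors and is induced by androgen, had a negative fold change that did not pass. The gene (GRCh38 chromosome 6, 35573585 to 35728583, minus strand) had estimated counts of 454, 427 and 405 in shscramble and 352, 381 and 374 in shMETTL1. All 3 shMETTL1 libraries lay below all 3 controls, but the gap between the groups was smaller than the range of the controls. The FPKM values averaged 26.6 ± 2.45 and 22.5 ± 0.617 (SD, n = 3). A log2 fold change of -0.27 (95% interval -0.51 to -0.02) was fitted, with an adjusted p of 0.186 by edgeR and of 0.0640 without shscramble replicate 2. TSC22D3 and FKBP5 are both also classical targets of the glucocorticoid receptor, whose gene NR3C1 stood below the count filter with 0.931 to 1.74 estimated counts in shscramble and 2.72 to 6.34 in shMETTL1. In derived fragments these were 1, 2 and 1 in shscramble and 2, 6 and 4 in shMETTL1, so the groups met. That is too few to say whether NR3C1 differed.

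The transcription elongation factor ELL2 and its partner EAF2, which bind each other in the super elongation complex, both had negative values that did not pass. ELL2 had 74.8, 119 and 81.9 estimated counts in shscramble and 69.4, 77.2 and 82.1 in shMETTL1. EAF2 had 17.8, 5.21 and 14.0 against 8.16, 2.11 and 7.82, so its fold change of -1.08 (standard error 0.632) rests on few fragments. In both groups EAF2 was lowest in replicate 2. The Mediator subunit gene MED28 lay near 0, with 438, 448 and 426 estimated counts in shscramble and 483, 425 and 459.5 in shMETTL1, and a 95% interval of -0.22 to 0.25 for its log2 fold change.

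ZBTB10, which encodes a BTB zinc finger repressor, differed more between replicates than between groups by count. Its estimated counts were 224, 446 and 278 in shscramble and 209.7, 486 and 191 in shMETTL1, so that replicate 2 was highest in both groups. By FPKM the values were 26.0, 22.9 and 32.3 against 16.9, 22.8 and 15.1, with every shMETTL1 library below every control. Fold changes on the log2 scale were -0.14 by edgeR and -0.56 by limma on FPKM (adjusted p = 0.289 by limma). The leucine zipper factor gene MAF was below the filter, at no more than 8.46 estimated counts in any library.

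Among signalling, turnover and cell division genes, C1orf116 rose. This gene (ENSG00000182795; GRCh38 chromosome 1, 207018521 to 207032756, minus strand) is also known as SARG, for specifically androgen-regulated gene, and the work of its product is poorly known. It had estimated counts of 72.0, 145 and 145 in shscramble and 207, 232 and 194 in shMETTL1. The groups did not overlap, and shscramble replicate 1 was far below the other 2 controls. FPKM averaged 7.63 ± 2.63 in shscramble and 13.3 ± 1.20 in shMETTL1 (SD, n = 3). This was a log2 fold change of 0.76 (standard error 0.2, adjusted p = 0.0307 by edgeR). It was called in 2 of the 6 fits that left a library out, and the call was lost without shscramble replicate 1, where the value was 0.53, or without any 1 of the shMETTL1 libraries.

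PMEPA1, which encodes a membrane protein that lowers TGF-beta signalling by binding SMAD proteins and ubiquitin ligases, had higher counts in all 3 shMETTL1 libraries. They were 74.8, 60.8 and 83.8 in shscramble and 107, 110.0 and 117 in shMETTL1. The groups did not overlap by count, but they did by FPKM, at 3.78 to 5.66 against 5.50 to 7.13. Its log2 fold change of 0.55 did not pass (adjusted p = 0.103 by edgeR).

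NDRG1, a stress-responsive gene known as a suppressor of metastasis, had 186, 145 and 149 estimated counts in shscramble and 140.1, 122 and 86.0 in shMETTL1. All shMETTL1 libraries lay below the controls, with the highest of them close to the lowest control. Its log2 fold change was -0.52 (adjusted p = 0.119 by edgeR), and without shscramble replicate 2 it was -0.63 and passed (adjusted p = 0.0216). CENPN, which encodes a protein of the inner centromere, had a log2 fold change of -0.28 and CAMKK2, a kinase that activates AMPK, of -0.21, with adjusted p-values of 0.232 and 0.387 by edgeR. The ubiquitin ligase gene HERC3 was at 0.06, within an interval of -0.27 to 0.39.

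Among membrane and trafficking genes the called members fell. TMPRSS2 (ENSG00000184012; GRCh38 chromosome 21, 41464551 to 41531116, minus strand) encodes a serine protease anchored in the luminal cell membrane. Its estimated counts were 343, 278 and 255 in shscramble and 159, 226 and 199 in shMETTL1. The groups did not overlap, and the highest shMETTL1 library was nearest to shscramble replicate 3. By FPKM the groups were closer, at 31.4, 31.8 and 25.2 against 24.2, 23.5 and 21.7. By edgeR the log2 fold change was -0.64 (standard error 0.164, adjusted p = 0.0267), against -0.34 by limma on FPKM (adjusted p = 0.392). TMPRSS2 was called in 3 of the 6 fits that left a library out, and the call was lost without shscramble replicate 1, shMETTL1 replicate 1 or shMETTL1 replicate 3, with log2 fold changes of -0.75 to -0.46 over the 6 fits.

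RAB3B (GRCh38 chromosome 1, 51907956 to 51990764, minus strand) encodes a small GTPase of regulated secretion. It had estimated counts of 191, 221 and 210.3 in shscramble and 170.0, 153 and 115 in shMETTL1. The groups did not overlap, and shMETTL1 replicate 3 was the lowest. The level per transcript length was low, at 3.71 ± 0.279 and 2.61 ± 0.503 FPKM (SD, n = 3). EdgeR gave a log2 fold change of -0.55 (standard error 0.159, adjusted p = 0.0455). The call was close to the threshold and held in 1 of the 6 fits with a library left out, the one without shscramble replicate 2 (adjusted p = 0.0208), and it was lost when counts were scaled by library totals alone.

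TPD52, a vesicle trafficking gene amplified in prostate cancer and the member with the highest mean FPKM (91.2 over the 6 libraries), lay just outside the threshold. It had 891, 891 and 851 estimated counts in shscramble and 801, 705 and 536 in shMETTL1, without overlap. By FPKM the groups overlapped, since shMETTL1 replicate 1 had the highest value of all, 114, and the other 2 shMETTL1 libraries had the lowest, 76.5 and 65.9. By edgeR its log2 fold change was -0.42 (adjusted p = 0.0605, and 0.0150 without shscramble replicate 2).

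ABCC4, an efflux pump for cyclic nucleotides and drugs, had 317, 266 and 286 estimated counts against 229.8, 278 and 197, with shMETTL1 replicate 2 inside the range of the controls. Its log2 fold change was -0.36 (adjusted p = 0.166 by edgeR), and it passed without shscramble replicate 2 (-0.46, adjusted p = 0.0268). The cold-sensing channel gene TRPM8 had 33.6, 19.1 and 24.2 estimated counts against 16.3, 19.0 and 11.7, a log2 fold change of -0.77 that did not pass (adjusted p = 0.271 by edgeR). By FPKM its mean was 1.46 ± 0.409 in shscramble and 1.61 ± 0.875 in shMETTL1 (SD, n = 3), so that the sign turned. SLC45A3, the prostate-specific transporter prostein, was at -0.14 and the prostaglandin E2 receptor gene PTGER4 at 0.16, and in both the groups overlapped. The metalloreductase gene STEAP4 was below the filter, at no more than 2.11 estimated counts.

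**Figure D2:**
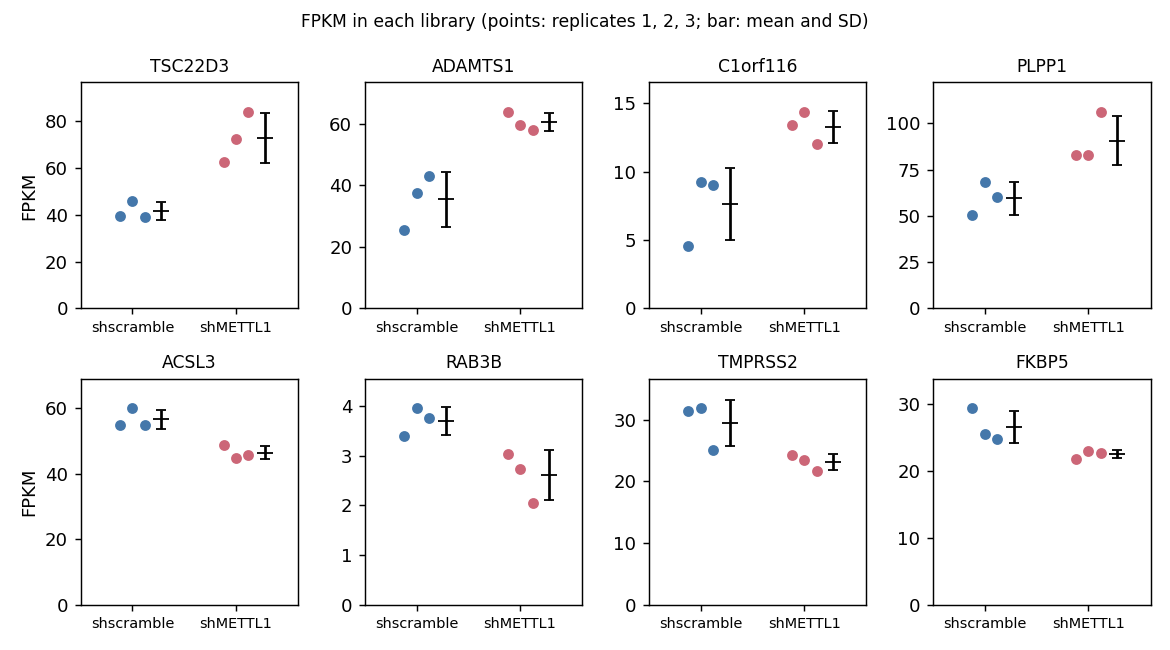
FPKM of the 7 called members and of FKBP5 in each library (points, replicates 1 to 3 from left to right in each group), with the group mean and SD drawn beside them as a bar, n = 3. The 4 genes that rose have every shMETTL1 point above every shscramble point, and TMPRSS2, RAB3B, ACSL3 and FKBP5 have every shMETTL1 point below.

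Among the metabolic genes 1 member rose and 1 fell. PLPP1 (ENSG00000067113; GRCh38 chromosome 5, 55424854 to 55535050, minus strand) encodes a phosphatase at the cell surface that removes phosphate from lysophosphatidic and phosphatidic acid. Its estimated counts were 302, 367 and 356 in shscramble and 471, 483 and 636 in shMETTL1. All shMETTL1 libraries were higher, and shMETTL1 replicate 3 stood above the other 2. Mean FPKM was 59.6 ± 8.92 in shscramble and 90.7 ± 13.4 in shMETTL1 (SD, n = 3). The fitted log2 change of 0.59 passed (standard error 0.133, adjusted p = 0.0129 by edgeR). PLPP1 was called in 4 of the 6 fits with a library left out, and the call was lost without shscramble replicate 3 or shMETTL1 replicate 3 (lowest value 0.42).

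ACSL3 (GRCh38 chromosome 2, 222860934 to 222944639, plus strand) encodes an enzyme that joins long-chain fatty acids to coenzyme A at the endoplasmic reticulum and lipid droplets. It had 829.8, 756 and 834 estimated counts in shscramble and 670.4, 564 and 603 in shMETTL1. The groups were apart by both units, with 56.5 ± 2.96 and 46.5 ± 2.13 FPKM (SD, n = 3). On the log2 scale the change was -0.45 (standard error 0.115, adjusted p = 0.0265 by edgeR) with a range of -0.54 to -0.38 when libraries were left out. Of those 6 fits only the one without shscramble replicate 2 called it (adjusted p = 0.000516).

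SORD, which turns sorbitol into fructose, had 607, 1035 and 771 estimated counts in shscramble and 1001, 902 and 1034 in shMETTL1. The highest value of all was in shscramble replicate 2, and without that library SORD was called higher (log2 fold change 0.42, adjusted p = 0.00683 by edgeR) whereas with it the value was 0.25 (adjusted p = 0.316). A closely similar pseudogene copy of SORD is known, and whether reads were shared with it was not tested. The retinal reductase gene DHRS3 was at -0.13, and ALDH1A3, which makes retinoic acid, was at 0.42 with 9.78 to 24.3 estimated counts in shMETTL1 and about 12.1 in each control library. Neither passed. GNMT, a glycine methyltransferase that uses S-adenosylmethionine, reached at most 6.84 estimated counts, and NNMT, a nicotinamide methyltransferase, at most 1.96, and both were below the filter. HPGD, which inactivates prostaglandins, was at 0 in all 6 libraries.

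The secreted protease gene ADAMTS1 rose with the smallest adjusted p of the members. ADAMTS1 (ENSG00000154734; GRCh38 chromosome 21, 26835747 to 26845409, minus strand) encodes a matrix protease that cleaves proteoglycans such as versican and aggrecan. It had 458, 382 and 383 estimated counts in shscramble and 745, 755 and 695 in shMETTL1. The 3 libraries of each group were close together and the groups far apart. By FPKM the controls spread more, at 25.5, 37.7 and 43.2, and shMETTL1 libraries were at 63.9, 59.7 and 58.2. The log2 fold change was 0.79 (standard error 0.12, adjusted p = 0.000542 by edgeR), between 0.70 and 0.93 and called in all 6 fits with a library left out, and the adjusted p by limma on FPKM was 0.146. The testican proteoglycan gene SPOCK1 and the acute-phase protein gene ORM1 had at most 5.44 and 1.06 estimated counts and were not tested.

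**Figure D3:**
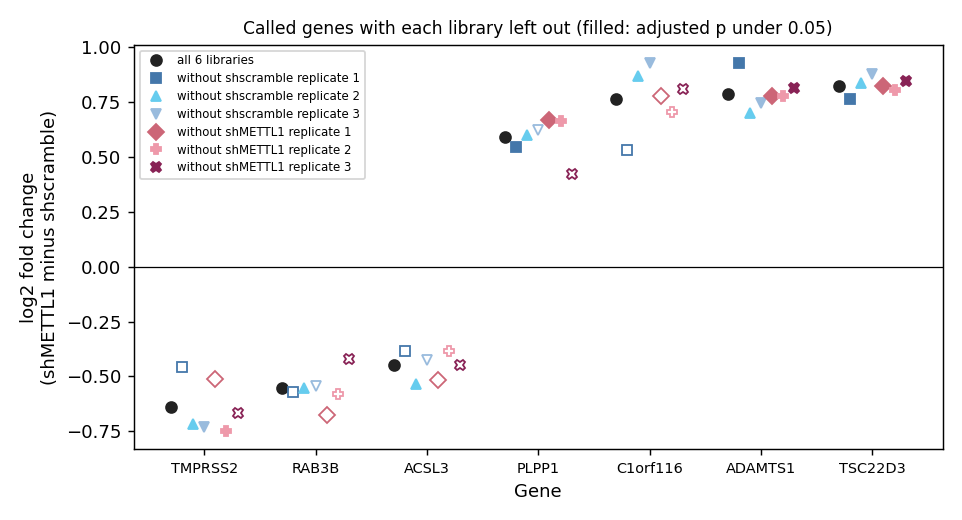
Log2 fold change by edgeR of the 7 called members with all libraries and with each of the 6 libraries left out, filled where the gene was called. TSC22D3 and ADAMTS1 are filled throughout, and RAB3B and ACSL3 are filled in 1 of the 6 fits with a library left out.

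No member changed sign under any scaling of the counts, and the values of the 7 called members kept their direction in each alternative fit that was run. The calls differed in how often they held with a library left out. Such fits hold fewer libraries, and all but the one without shscramble replicate 2 also called fewer of all genes. A lost call need not mean a smaller change: C1orf116 was at 0.81 without shMETTL1 replicate 3 and at 0.76 with all libraries. TSC22D3 and ADAMTS1 were called in 6 of 6 fits with a library left out, PLPP1 in 4, TMPRSS2 in 3, C1orf116 in 2 and RAB3B and ACSL3 in 1 each. Over all alternatives, those by limma on FPKM included, adjusted p-values ran from 1.15e-05 to 0.148 for TSC22D3, from 3.09e-07 to 0.234 for ADAMTS1, from 0.0014 to 0.334 for C1orf116 and from 0.000501 to 0.25 for PLPP1. They ran from 0.0023 to 0.425 for TMPRSS2, from 0.0208 to 0.499 for RAB3B and from 0.000516 to 0.399 for ACSL3. For members not called with all libraries the ranges were 0.0640 to 0.529 for FKBP5, 0.0150 to 0.688 for TPD52, 0.0216 to 0.455 for NDRG1, 0.0268 to 0.473 for ABCC4, 0.00683 to 0.716 for SORD and 0.122 to 0.965 for ZBTB10. The number of members called lower was 0 without shscramble replicate 1, shMETTL1 replicate 1 or shMETTL1 replicate 3, and it was 1, TMPRSS2, without shscramble replicate 3 or shMETTL1 replicate 2. All genes called lower in these fits were, in the same order, 238, 178, 200, 175 and 179, against 435 of 11754 with all libraries.

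**Figure D4:**
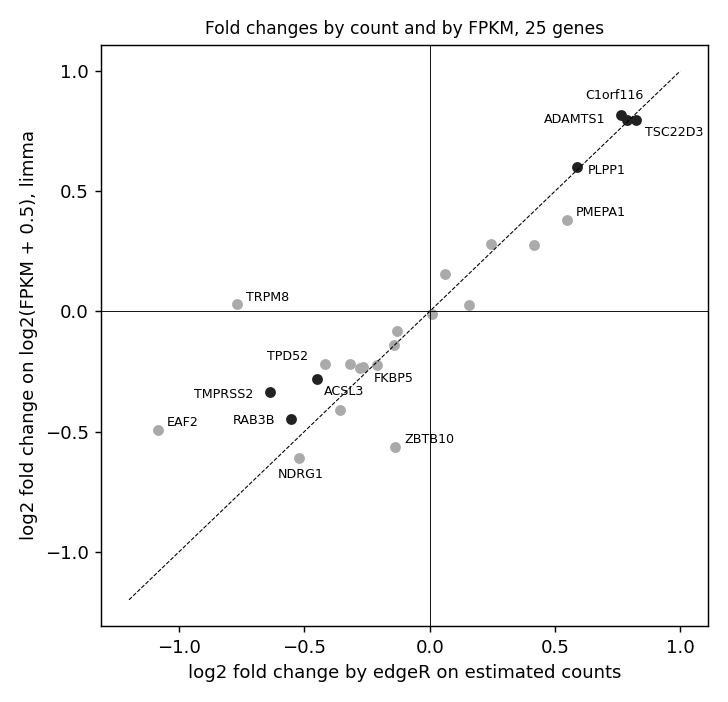
Log2 fold change by limma on log2(FPKM + 0.5) against that by edgeR on estimated counts for the 25 members tested, with called genes in black, the others in grey and the dashed line where both are equal. The 4 genes that rose lie close to the line, TMPRSS2 is at -0.64 by count and -0.34 by FPKM, and TRPM8, EAF2 and ZBTB10 lie far from it, EAF2 at -1.08 and -0.49 and ZBTB10 at -0.14 and -0.56.

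Partners of steroid receptors gave no call. Of 23 genes for steroid receptors, pioneer factors, coactivators, corepressors and chaperones, 21 were tested and 0 passed by edgeR, and 4 had an unadjusted p under 0.05, all higher in shMETTL1 (CREBBP, NCOA3, HOXB13 and SGTA). At that unadjusted threshold 10.5% of all tested genes were higher and 11.9% lower. By limma on FPKM none passed, and none had an unadjusted p under 0.05. FOXA1, a pioneer factor of luminal chromatin, had 1227 ± 152 and 1385 ± 25.9 (SD, n = 3), a log2 fold change of 0.13 (adjusted p = 0.522 by edgeR). HOXB13, a homeobox gene of luminal prostate cells, was at 0.27 (adjusted p = 0.206 by edgeR). Without shscramble replicate 2, 3 of the 21 were called, all higher, against 8.30% of all genes called higher and 10.0% called lower in that fit, and HOXB13 was among them (0.41, adjusted p = 0.00593).

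Other androgen-responsive genes were read from lists of 8 induced and 5 repressed genes. Of the 8 induced genes 3 fell and none rose, against 3.70% of all genes called lower and 2.71% called higher. Without shscramble replicate 2 the number lower was 4, against 10.0% of all genes, the added gene being the zinc finger factor gene ZBTB16 (log2 fold change -0.69, adjusted p = 0.0171 by edgeR, and -0.56 with adjusted p = 0.0986 with all libraries). KLK3, the gene of prostate-specific antigen, went from 7719, 7304 and 7468 estimated counts to 4573, 5354 and 5053 (log2 fold change -0.64, adjusted p = 0.00137 by edgeR). Its close paralogue KLK2, for which sharing of reads was not tested, fell as well (-1.23, adjusted p = 4.38e-06 by edgeR), and so did MPHOSPH9, a phosphoprotein of the centrosome (-0.66, adjusted p = 0.00313 by edgeR), although the FPKM values of MPHOSPH9 overlapped. Of the repressed genes MET, the receptor of hepatocyte growth factor, fell, with 70.1, 119.8 and 99.6 estimated counts in shscramble and 63.9, 30.7 and 36.2 in shMETTL1 (log2 fold change -1.18, adjusted p = 0.0133 by edgeR). Its call was lost without shscramble replicate 3, shMETTL1 replicate 2 or shMETTL1 replicate 3 (adjusted p = 0.0607 to 0.0822), and the other 4 repressed genes did not pass. Of the 5 repressed genes 2 had positive and 3 negative log2 fold changes. The largest positive one was 1.36 for UGT2B17 (adjusted p = 0.127 by edgeR), which had at most 9.31 estimated counts in shscramble.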

How the data were processed

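RNA-seq of 6 LNCaP-AI libraries was analysed from gene tables. FPKM, as deposited, scales fragments to the length of the transcript and to the depth of the library. The second deposited column holds estimated counts. In it 89.6% to 90.9% of the values above 0 were whole multiples, within 0.01, of one step per library, so counts had been scaled per library by a factor not given in the sources used here. According to processing notes by the submitters, HISAT2 2.0.4, cutadapt 1.9.3, Cuffdiff and Cufflinks were used with the build hg19, without a stated order. Strand handling is not given in the sources used here. The study states Student's test, p under 0.05 and a fold change above 1.5.

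Counts were rounded and tested with edgeR 4.0.16 in R 4.3.3 (TMM, robust quasi-likelihood, two-sided, Benjamini-Hochberg over all genes tested, mean estimated count at least 5). FPKM were tested with limma 3.58.1 (trend, robust; log2(FPKM + 0.5), mean FPKM at least 0.5). The fold changes by FPKM are on that scale and understate low genes. DESeq2 1.42.0, other scalings, filters, pseudocounts (0.1 and 1), a replicate block and leaving out each library were alternatives. The fits by edgeR, DESeq2 and limma on log2 CPM were tested on simulated counts, and limma on FPKM was not. The simulation used the same dispersion for every gene and held no library that stood apart from its group. With 3 libraries against 3, an exact permutation test cannot give a p below 0.1 and was not used.

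The members, the lists and the main test were chosen with earlier results of these data known, among them that edgeR calls more genes than limma on FPKM. Called members, FKBP5 and TMPRSS2 were named with full values by rule, other members by role; FOXA1, HOXB13, NR3C1, KLK3 and any called list gene were also named. CREBBP, NCOA3, SGTA, ZBTB16 and UGT2B17 were named after their values were seen. Symbols were paired with 19434 of the 20308 identifiers. Positions are those of GRCh38 and promoters those of RefSeq on GRCh38.p14. The tables hold no coordinates. Some genes of the lists are not reported here, and list counts and sums leave them out.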

Additional observations from a re-analysis of the deposited data

How the results depend on the processing

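The counts of members called (4 higher, 3 lower) and of all genes called (319 higher, 435 lower) held within 1.5 times under other scalings, DESeq2, limma on log2 CPM and other count filters, and with the fragments before scaling, an alternative chosen after seeing the data. By limma on FPKM no member was called in either direction at any pseudocount or filter, and all genes called were 6 higher and 9 lower at a pseudocount of 0.5, 3 and 9 at 0.1, 6 and 10 at 1, and 1 and 3 without a filter; the cause was not tested. With the thresholds of the study, applied to the unadjusted p of edgeR in place of Student's test, 4 members were higher and 1 was lower. Of all 11754 genes tested, 446 were higher and 613 lower at these thresholds. Leaving out 1 library gave 2 to 5 members higher, 0 to 6 lower, 123 to 975 of all genes higher and 175 to 1176 lower, the highest each without shscramble replicate 2. With the replicate number as a block, 4 members were higher and 4 lower, TPD52 being added, and all genes called were 434 and 590. Libraries with the same number deviated together at correlations of 0.033, 0.107 and -0.028, against -0.082 to 0.057 for other pairs. Deviations were taken from means of 3 libraries, which ties these correlations to each other. They therefore cannot show whether libraries with the same number share an effect.

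Log2 fold changes of genes that were not called changed sign as follows. By limma on FPKM at pseudocounts of 0.5, 0.1 and 1 and without a filter, TRPM8 was at 0.0297, 0.00236, 0.0389 and 0.0297, MED28 at -0.0117, -0.0118, -0.0116 and -0.0117, EP300 at 0.0116, 0.0118, 0.0114 and 0.0116, and PTGES3 at -0.0153, -0.0154, -0.0153 and -0.0153. With 1 library left out, values ran from -0.313 to 0.00636 for SLC45A3, -0.679 to 0.14 for ZBTB10, -0.0272 to 0.162 for HERC3, -0.19 to 0.772 for PTGER4, -0.0305 to 0.0693 for MED28, -0.0134 to 0.147 for NCOR1, -0.123 to 0.0616 for EP300, -0.0119 to 0.219 for HSP90AA1, -0.0506 to 0.169 for SPOP, -0.472 to 0.192 for KLK4 and -0.256 to 0.0489 for OPRK1. Of 497 alternative values of single members, 422 kept direction and side of the threshold, 48 lost the threshold, 7 passed it and 20 changed sign, in 6 genes. Depth of 2650770 to 4085352 fragments limits what can be said of the 7 members below the filter and of EAF2, TRPM8, PTGER4 and ALDH1A3.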
